A study of Citrus sinensis with 6 samples.

Results

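Ethylene is a gaseous plant hormone that fruit make from methionine by way of 1-aminocyclopropane-1-carboxylic acid (ACC). ACC synthase makes ACC and ACC oxidase turns it into ethylene. Receptors of the ETR family, known best from Arabidopsis, repress the response until they bind ethylene, after which transcription factors of the EIN3 and EIL family switch on a further layer of ethylene-responsive (ERF or EREBP) factors. Citrus fruit are non-climacteric, and in their peel ethylene is known for its part in degreening and in the response to wounding and infection.

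The 5 genes described here were chosen by name from the gene names of the transcript tables, out of 31688 genes in all. They are LOC102577997, whose synonym aco-1 is the usual name of an ACC oxidase, the receptor genes ETR1 and ETR2, the transcription factor gene EIL1 and the response factor gene EREBP. Together they have 14 of the 59106 transcripts listed. No product names were available, so the role given to each gene rests on its symbol or synonym.

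The libraries came from the white inner peel (albedo) of sweet orange, Citrus sinensis, cut out 3 days after the fruit were inoculated. The treatment of 3 libraries combined Rhodotorula mucilaginosa, an antagonist yeast, and 0.2 mM salicylic acid (SA), and these are called SA libraries. The other 3, called yeast-only, had the same yeast without SA. All fruit were thus treated with the yeast, and fruit without it were not analysed here. The labels name neither the agent inoculated nor whether libraries came from separate fruit, so p-values measure the spread between these libraries, which may be technical. The question of the series is how defence genes respond when SA is added to the yeast.

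Depth, read from the ratio of coverage to FPKM (fragments scaled to transcript length and library size), was 4.78 to 5.24 gigabases in the 3 SA libraries and 4.11 to 4.87 gigabases in the 3 yeast-only libraries. No defining marker of albedo could be matched by name. Summed FPKM of PSAE, PSADB and CHLASE1, checked for green peel, was 16.8 to 25.01 in SA libraries and 24.4 to 29.2 in yeast-only libraries. None of the 3 was at 0 in any library. CHLASE1 made up most of that sum. By its symbol it is a chlorophyllase gene, of chlorophyll breakdown, rather than a marker of green tissue. It was the one of the 3 whose groups did not overlap, at 12.4 to 16.7 FPKM in SA libraries and 18.8 to 21.1 FPKM in yeast-only libraries. The groups did not overlap in 10.2% of all genes tested. PSAE was at 3.41 to 5.97 FPKM in SA libraries and 2.67 to 7.38 FPKM in yeast-only libraries. PSADB was at 1.01 to 2.30 FPKM in SA libraries and 0.632 to 2.98 FPKM in yeast-only libraries. Summed FPKM of 44 photosynthesis genes of the chloroplast genome was 49.6 to 138 in SA libraries and 68.5 to 146 in yeast-only libraries, with 3 to 8 of them at 0 in an SA library and 2 to 10 in a yeast-only library. The part of these genes in the results that follow was not tested. In such tissue RNA, fewer cells of a type and less RNA per cell cannot be told apart.

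The ACC oxidase gene LOC102577997 was the most abundant gene of the albedo by mean level. It lies on NC_023047.1 from 17437348 to 17438825 on the minus strand, in the coordinates of the files, and has 1 transcript of 1152 bases with 4 exons. Its level was 5513, 3884 and 5281 FPKM in SA replicates 1 to 3. In yeast-only libraries it was 4357, 5949 and 5378 FPKM in replicates 1 to 3. The lowest was an SA library and the highest a yeast-only library, but the other 4 interleaved, so the groups overlapped.

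By mean level over the 6 libraries, 5060 FPKM, LOC102577997 ranked 1 among 31688 genes, and in single libraries it ranked 1 or 2. By mean level no named gene lay above it. The next named gene below it was LEA5, a late embryogenesis abundant protein gene, at a mean of 4171 FPKM. After it came the vacuolar processing enzyme gene VPE, at 1345 FPKM and rank 27 among all genes. In its highest library LEA5 reached 6521 FPKM, above every value of LOC102577997. Between 20.7 and 33.4 megabases of aligned sequence per library stood behind the value of LOC102577997, against 0.252 to 0.382 megabases for EREBP, the member with the least.

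SA libraries were compared with yeast-only libraries by limma, on log2(FPKM + 1) over 17355 genes with a mean FPKM of at least 1. LOC102577997 averaged 4893 ± 881 FPKM in SA libraries and 5228 ± 806 FPKM in yeast-only ones (SD, n = 3 each). Its log2 difference in limma was -0.10 (SE 0.23, 95% interval -0.62 to 0.42; adjusted p = 0.988). On the ratio scale that interval runs from 0.650 to 1.34. Its sign turned under quantile normalization (0.16) and without SA replicate 2 (0.057). Quantile normalization sets a level by its rank alone, here 1 or 2 in each library, so the 0.16 reflects those ranks and not the measured levels.

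Of the 5 members, 0 passed the threshold of an adjusted p under 0.05 in limma, against 0.00576% of all genes tested (1 of 17355). An unadjusted p under 0.05 was reached by 0 members and by 5.23% of all genes. With 1 library left out, 1 member reached it in 3 cases, EREBP without SA replicate 1 or yeast-only replicate 3 and EIL1 without yeast-only replicate 1. The libraries of the groups overlapped in all 5 members, while they did not overlap in 10.2% of all genes. By mean log2 difference 2 members, ETR2 and EIL1, were above 0 and 3 below, and of all genes 54.2% were above 0 and 45.8% below. The median difference was -0.07 over the members and 0.02 over all genes tested. None of the 5 intervals reached a log2 difference of 1 in either direction, the widest being that of EIL1 (-0.48 to 0.83).

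**Figure D1:**
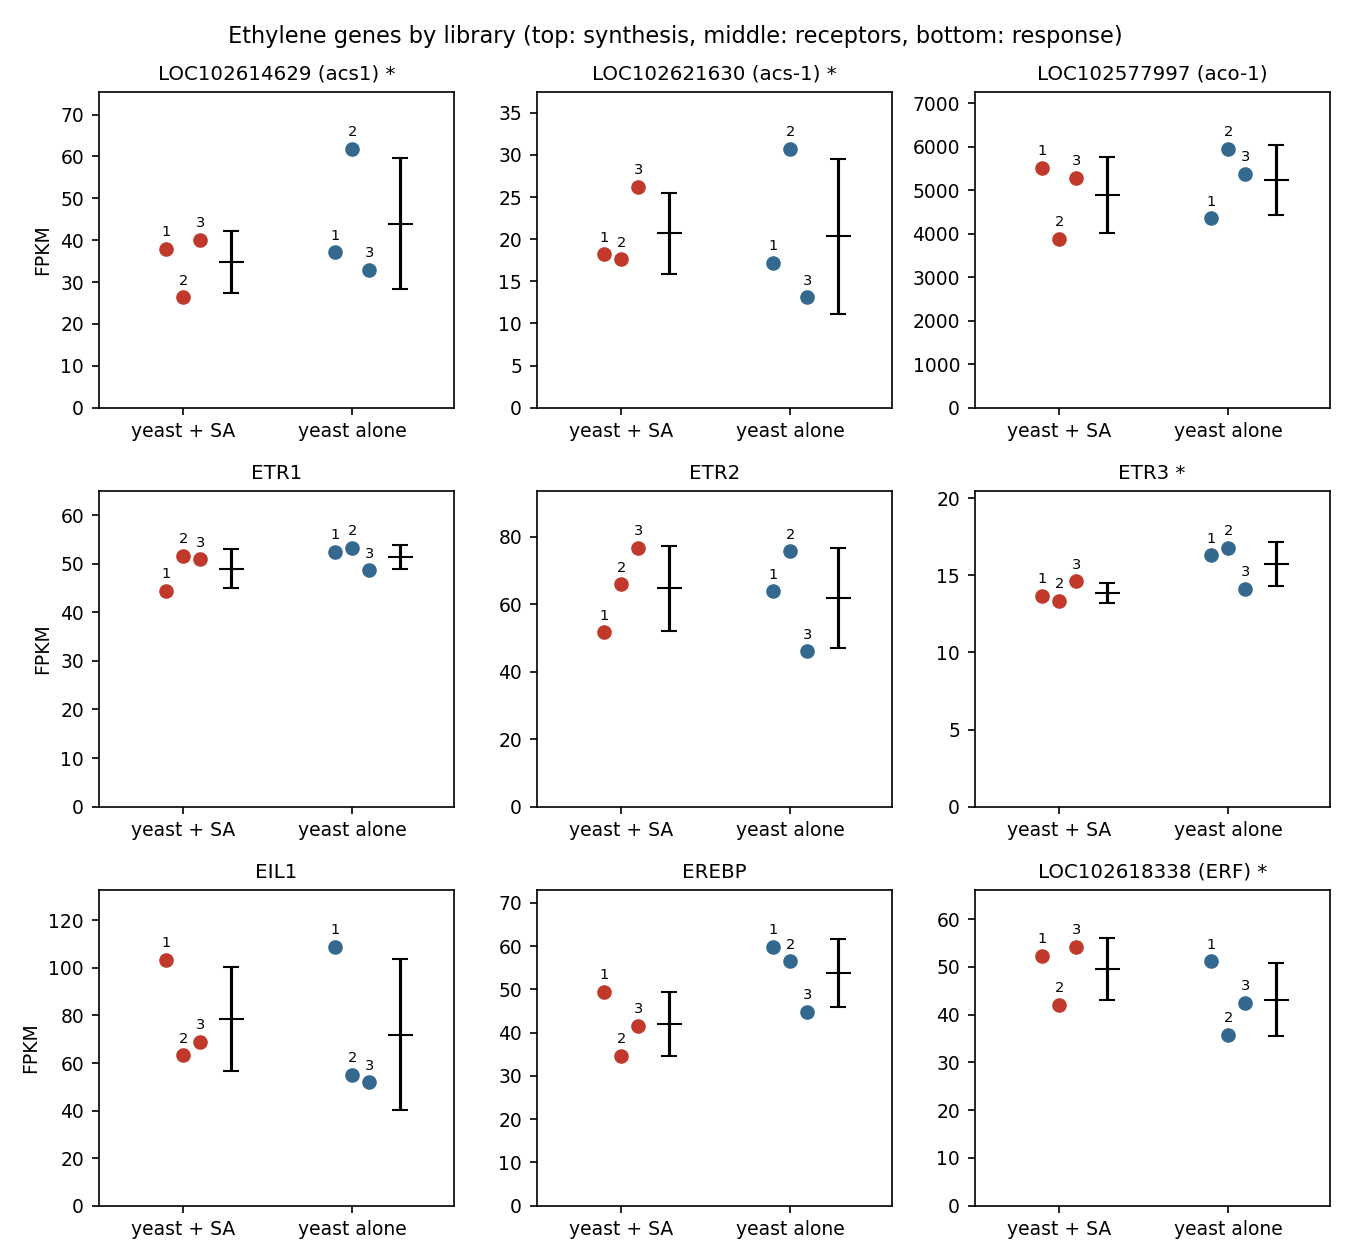
FPKM of the 5 members and of 4 further ethylene genes (marked with an asterisk) in each library, with the 3 yeast plus SA libraries (red) left of the 3 yeast alone libraries (blue). Small digits are replicate numbers, the bar beside each group is the mean ± SD (n = 3), and each axis starts at 0; in all 9 genes the groups overlap.

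The ACC synthase genes supply the substrate of ACC oxidase, and 2 genes carry such a name. LOC102614629 (synonyms acs1 and acs2) stood at 38.0, 26.3 and 40.1 FPKM in SA replicates 1 to 3, against 37.1, 61.8 and 33.0 FPKM in yeast-only libraries. LOC102621630 (synonyms acs-1 and acs2) stood at 18.2, 17.6 and 26.2 FPKM in SA libraries, against 17.2, 30.7 and 13.1 FPKM in yeast-only libraries. In both, yeast-only replicate 2 was the highest of the 6 libraries, as it was for LOC102577997 and for the receptor genes ETR1 and ETR3.

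The group means of LOC102614629 were 34.8 ± 7.40 FPKM in SA libraries and 44.0 ± 15.6 FPKM in yeast-only ones (SD, n = 3 each). Its log2 difference was -0.30 (SE 0.25, adjusted p = 0.976 in limma), and -0.03 without yeast-only replicate 2. LOC102621630 averaged 20.7 ± 4.81 FPKM in SA libraries and 20.3 ± 9.21 FPKM in yeast-only ones (SD, n = 3 each), a log2 difference of 0.09 (SE 0.29, adjusted p = 0.996 in limma). Without replicate 3 of either group its sign turned (-0.090 without SA replicate 3 and -0.17 without yeast-only replicate 3).

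Within a library the ACC oxidase transcript exceeded that of either ACC synthase in every library. The ratio of LOC102577997 to LOC102614629 was 145, 147 and 132 in SA replicates 1 to 3, and 117, 96.3 and 163 in yeast-only libraries. The ratio to LOC102621630 was 302, 221 and 201 in SA libraries, and 253, 194 and 410 in yeast-only libraries. The first of these ratios varied less among SA libraries (141 ± 8.50) than among yeast-only libraries (126 ± 34.2, SD, n = 3 each), a difference in spread that was not tested. Both ratios overlapped between the groups.

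Of the receptor genes matched by name, ETR1 varied least. It lies on NC_023050.1 from 12102912 to 12109416 on the plus strand and stood at 44.5, 51.6 and 50.9 FPKM in SA replicates 1 to 3. In yeast-only libraries it was at 52.4, 53.2 and 48.7 FPKM. Its highest library was only 1.20 times its lowest, and its within-group SD on the log2 scale, 0.10, was larger than that of 9.51% of the 8881 genes with a mean FPKM of at least 10. The group means were 49.0 ± 3.94 FPKM in SA libraries and 51.4 ± 2.45 FPKM in yeast-only ones (SD, n = 3 each).

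ETR1 had a log2 difference of -0.07 in limma (SE 0.12, 95% interval -0.35 to 0.20; adjusted p = 0.988). This is the narrowest interval of the 5 members, from 0.787 to 1.15 as a ratio. ETR1 has an annotated transcript of 7 exons, NM_001288934.1, that held 94.1% to 97.9% of its FPKM. The longer model of 8 exons, XM_006477852.3, stood at 0.930, 1.96 and 2.996 FPKM in SA libraries and at 1.25, 2.01 and 1.26 FPKM in yeast-only libraries. Its highest and its lowest value were both in SA libraries.

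ETR2 lies on NC_023054.1 and its annotated transcript of 3 exons runs from 6009133 to 6013206 on the plus strand. The gene stood at 51.6, 65.8 and 76.6 FPKM in SA replicates 1 to 3, and at 63.7, 75.6 and 46.1 FPKM in yeast-only libraries. Both groups spanned nearly the same range. An unannotated piece without strand, MSTRG.17606.1, lies downstream from 6014178 to 6014513 under the same gene name. It held at most 1.47% of the gene's FPKM, and its mean FPKM was too low for the test.

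ETR2 averaged 64.7 ± 12.5 FPKM in SA libraries and 61.8 ± 14.8 FPKM in yeast-only ones (SD, n = 3 each). Its log2 difference in limma was 0.08 (SE 0.21, 95% interval -0.40 to 0.55; adjusted p = 0.994). Its sign turned without SA replicate 3 (-0.054) or without yeast-only replicate 3 (-0.12). The within-group SD of ETR2, 0.32 on the log2 scale, was larger than that of 85.3% of genes with a mean FPKM of at least 10. A difference in spread between the receptor genes was not tested.

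ETR3, the third receptor gene matched by name, was lower than the other matched ones. It was at 13.7, 13.4 and 14.6 FPKM in SA replicates 1 to 3 and 16.3, 16.8 and 14.1 FPKM in yeast-only libraries. Receptor genes without such a symbol or synonym could not be found. Its log2 difference was -0.17 (SE 0.13, adjusted p = 0.976 in limma). The summed FPKM of these 3 receptor genes was 128 ± 16.4 in SA libraries and 129 ± 18.6 in yeast-only ones (SD, n = 3 each). ETR2 made up 42.3% to 53.9% of that sum over the libraries, ETR1 35.8% to 44.7% and ETR3 10.2% to 13.0%.

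The FPKM ratio of ETR1 to ETR2 does not depend on any factor by which a whole library is scaled. Their ratio was 0.861, 0.784 and 0.665 in SA replicates 1 to 3, and 0.823, 0.705 and 1.06 in yeast-only libraries. ETR2 was thus the higher in 5 of 6 libraries, the exception being yeast-only replicate 3. The log2 ratio, with 1 added to each FPKM, differed by -0.15 between the groups, and by -0.14 under quantile normalization. The former had p = 0.50 in a two-sided exact permutation test, where 3 against 3 libraries cannot go below 0.10. Without yeast-only replicate 3 the difference was 0.0082.

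**Figure D2:**
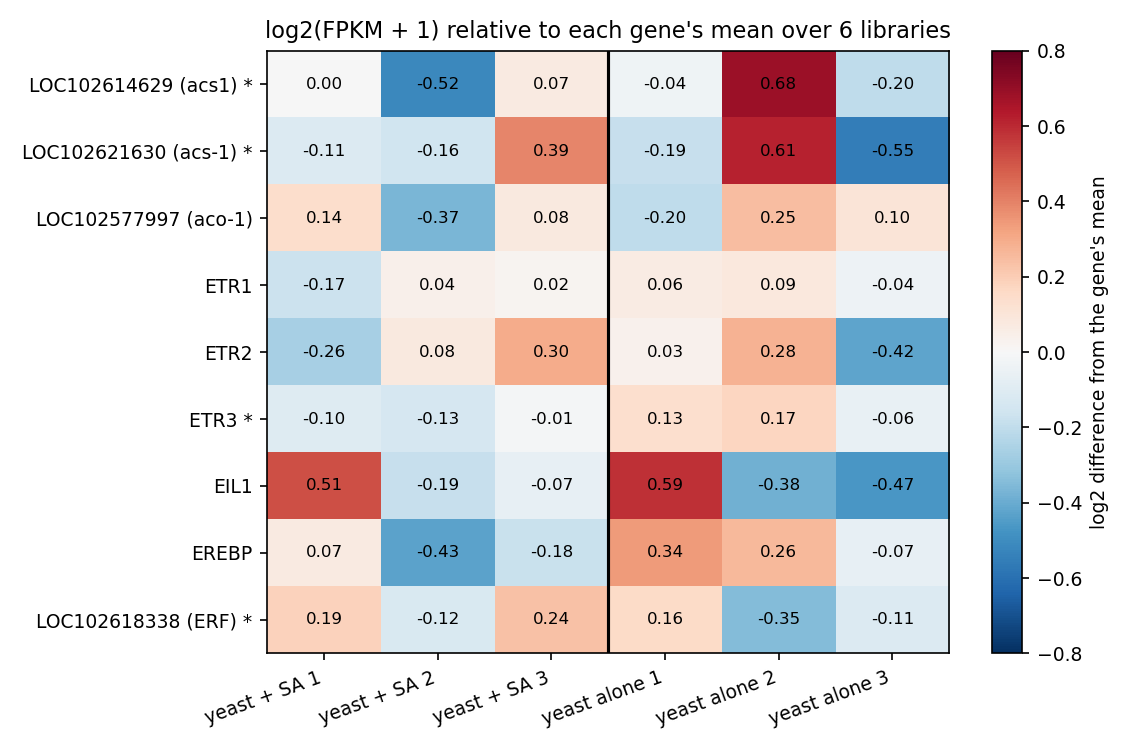
Log2(FPKM + 1) of each gene in each library (columns, yeast plus SA left of yeast alone) relative to the gene's own mean over the 6 libraries, in color and digits; an asterisk marks the 4 further ethylene genes. EIL1 and EREBP are highest in replicate 1 of each group. Both ACC synthase genes, LOC102577997, ETR1 and ETR3 are highest in yeast-only replicate 2, and ETR1 stays within 0.17 of its mean.

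EIL1 encodes a transcription factor of the family that in Arabidopsis carries the ethylene signal into the nucleus. It had the largest spread of the 5 members. The gene total was 104, 63.3 and 68.9 FPKM in SA replicates 1 to 3, against 109, 55.1 and 52.0 FPKM in yeast-only libraries. Replicate 1 was the highest library of each group, and the remaining 4 libraries lay between 52.0 and 68.9 FPKM. The within-group SD of 0.49 on the log2 scale was larger than that of 95.8% of genes with a mean FPKM of at least 10.

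EIL1 averaged 78.6 ± 21.8 FPKM in SA libraries and 72.0 ± 31.9 FPKM in yeast-only ones (SD, n = 3 each). Its log2 difference in limma was 0.17 (SE 0.29, 95% interval -0.48 to 0.83; adjusted p = 0.988). It was 0.51 without yeast-only replicate 1 and 0.03 without its replicate 2, and its sign turned without SA replicate 1 (-0.038) or yeast-only replicate 3 (-0.014). The green-tissue markers PSAE and PSADB were also highest in replicate 1 of each group. PSAE was at 5.97, 4.52 and 3.41 FPKM in SA libraries and 7.38, 5.09 and 2.67 FPKM in yeast-only libraries, and PSADB at 2.30, 1.99 and 1.01 FPKM in SA libraries and 2.98, 0.932 and 0.632 FPKM in yeast-only libraries. CHLASE1 was highest in SA replicate 1 (16.7 FPKM) but lowest of its group in yeast-only replicate 1 (18.8 FPKM). The chloroplast sum was highest in SA replicate 1 (138 FPKM) and in yeast-only replicate 3 (146 FPKM), where EIL1 was lowest. The part of these genes in the level of EIL1 was not tested.

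The EIL1 total joins transcripts of different extent. The locus runs on the plus strand of NC_023048.1 from 9712024 to 9722709. Its annotated model, NM_001288922.1, has 2 exons and spans nearly all of it, as does the assembled MSTRG.4976.2. MSTRG.4976.1 and MSTRG.4976.3 end at 9715489 and 9716364, and MSTRG.4976.5 and MSTRG.4976.6 begin at 9719321 and 9719335. An interval of 2956 bases separates the upstream from the downstream transcripts, and the files do not give exon positions. Whether the upstream and downstream transcripts belong to 1 gene or to neighbouring genes was not settled here, so the EIL1 total is a sum over everything filed under that name.

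The downstream transcripts carried 42.8% to 74.5% of the gene total and ranged more widely than the others. Together they stood at 77.1, 38.6 and 42.8 FPKM in SA replicates 1 to 3, and at 76.2, 29.4 and 22.2 FPKM in yeast-only libraries. That is a 3.47-fold range over the libraries, with replicate 1 highest in each group. The upstream transcripts stood at 18.3, 15.6 and 16.9 FPKM in SA libraries and at 25.6, 18.1 and 19.3 FPKM in yeast-only libraries, a 1.64-fold range. In the upstream part 2 of the SA libraries lay below all 3 yeast-only libraries, and SA replicate 1 did not.

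The transcripts that span the locus summed to 8.11, 9.16 and 9.24 FPKM in SA replicates 1 to 3, and to 7.06, 7.55 and 10.5 FPKM in yeast-only libraries, a 1.48-fold range. The estimated division of that sum between its transcripts switched from library to library. Their extents overlap almost fully, and how any shared reads were divided between them is not known. MSTRG.4976.2 held 92.4%, 4.48% and 11.1% of it in SA libraries, and 88.1%, 94.8% and 3.75% in yeast-only libraries, and the annotated NM_001288922.1 held the rest. The libraries dominated by either transcript occurred in both groups.

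By its estimated FPKM, which carries that limit, the annotated EIL1 model alone followed a different course from the gene total. NM_001288922.1 stood at 0.615, 8.74 and 8.21 FPKM in SA replicates 1 to 3, and at 0.842, 0.392 and 10.1 FPKM in yeast-only libraries. It was under 1 FPKM in replicate 1 of each group, where the gene total was highest, and in yeast-only replicate 2. Its share of the gene total ran from 0.594% to 19.4%. With annotated transcripts only, the log2 difference of EIL1 was 0.78 (SE 0.93) in place of 0.17, with an adjusted p of 0.960 in limma. With 1 library left out, that of NM_001288922.1 ran from 0.22 to 1.71.

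**Figure D3:**
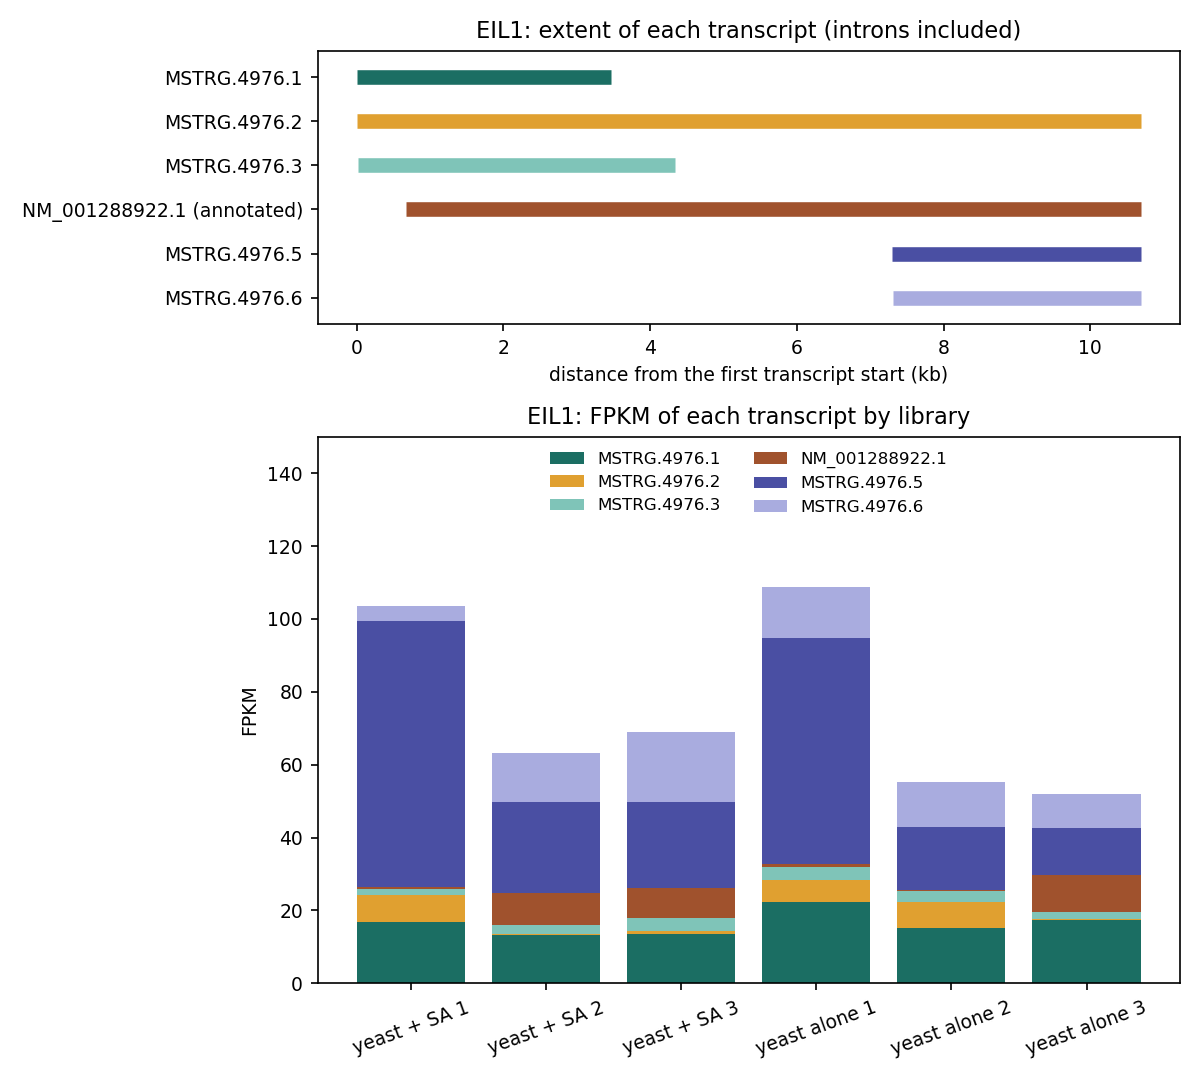
Upper panel, extent of the 6 EIL1 transcripts in kilobases from the first transcript start, introns included. Lower panel, FPKM of each transcript stacked by library, yeast plus SA left of yeast alone; the downstream MSTRG.4976.5 (dark blue) is tallest in replicate 1 of each group, at 73.0 and 62.2 FPKM.

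Single EIL1 transcripts were tested among 26605 transcripts. The most abundant, MSTRG.4976.5, was at 73.0, 24.9 and 23.7 FPKM in SA libraries and at 62.2, 17.1 and 12.9 FPKM in yeast-only libraries. Its log2 difference was 0.52 (SE 0.67, adjusted p = 0.954 in limma), 0.0055 without SA replicate 1 and 1.19 without yeast-only replicate 1. The upstream MSTRG.4976.1 averaged 14.5 ± 2.01 FPKM in SA libraries and 18.3 ± 3.61 FPKM in yeast-only ones (SD, n = 3 each). Its log2 difference was -0.31 (SE 0.19, adjusted p = 0.928 in limma).

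EREBP, which encodes a factor of the class that binds ethylene-responsive promoter elements, had the largest difference of the 5 members in the test as planned. EIL1 had a larger one with annotated transcripts only (0.78), without SA replicate 2 (0.31) and without yeast-only replicate 1 (0.51). EREBP lies on NC_023049.1 from 17134086 to 17137244 on the minus strand. It stood at 49.5, 34.7 and 41.5 FPKM in SA replicates 1 to 3, and at 59.8, 56.5 and 44.9 FPKM in yeast-only libraries. Replicate 1 was its highest library in each group, as it was for EIL1. In 2 of the SA libraries EREBP was below all 3 yeast-only libraries. SA replicate 1, at 49.5 FPKM, lay above yeast-only replicate 3, so the groups overlapped.

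The group means of EREBP were 41.9 ± 7.41 FPKM in SA libraries and 53.7 ± 7.84 FPKM in yeast-only ones (SD, n = 3 each), a ratio of 0.780. Its log2 difference in limma was -0.36 (SE 0.17, 95% interval -0.74 to 0.03; adjusted p = 0.960). Of all genes tested, 87.6% had a smaller absolute difference. Leaving out each library in turn gave -0.48 to -0.23, and the adjusted p in limma was at least 0.660 in all 15 alternatives.

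EREBP has 3 annotated transcripts of 4 exons each that share their 3′ end. NM_001288943.1 held 87.0% to 91.1% of the FPKM in each library. It stood at 44.7, 31.3 and 36.7 FPKM in SA libraries and at 52.0, 51.4 and 40.1 FPKM in yeast-only libraries, a log2 difference of -0.35 (SE 0.18, adjusted p = 0.928 in limma). XM_006475728.3 was at 3.20, 1.84 and 3.34 FPKM in SA libraries and at 6.72, 3.33 and 4.17 FPKM in yeast-only libraries. Its groups overlapped by SA replicate 3 and yeast-only replicate 2. XM_015529519.2 was at 1.55, 1.54 and 1.53 FPKM in SA libraries and at 1.04, 1.702 and 0.583 FPKM in yeast-only libraries.

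The gene with the synonym ERF, LOC102618338, is a single-exon gene that lies on NC_023050.1 from 31873821 to 31874645. It stood at 52.3, 42.1 and 54.2 FPKM in SA replicates 1 to 3 and at 51.2, 35.8 and 42.5 FPKM in yeast-only libraries. Its log2 difference was 0.20 (SE 0.17, adjusted p = 0.976 in limma), and 0.077 to 0.33 with 1 library left out.

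Over all 13 member transcripts that entered the test, 0 passed in limma, against 0.0338% of all transcripts (9 of 26605), and 0 had an unadjusted p under 0.05, against 5.18%. Their adjusted p-values in limma were 0.928 to 0.986. The 9 became 28 without SA replicate 1, 4 without SA replicate 2 and 1 without SA replicate 3. The groups overlapped in all 14 member transcripts, and did not in 10.2% of all transcripts tested. Of the 4 further ethylene genes, 2 were above 0 and 2 below by mean log2 difference and 0 passed, with a median of -0.04.

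**Figure D4:**
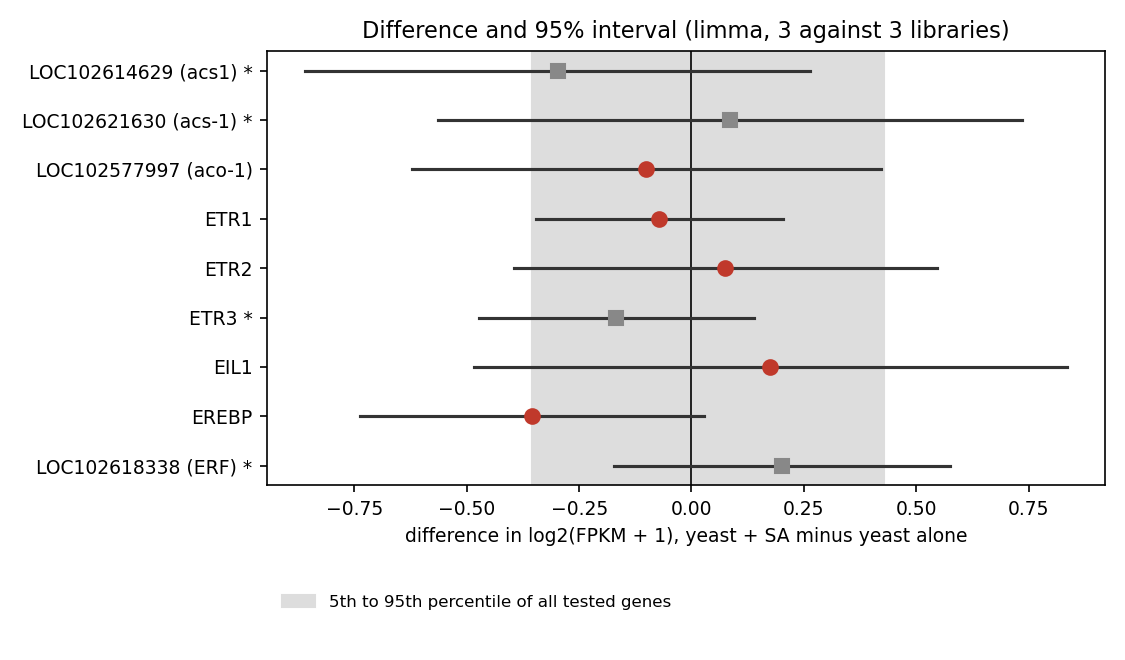
Difference in log2(FPKM + 1), yeast plus SA minus yeast alone, of the 5 members (red circles) and 4 further ethylene genes (gray squares, asterisk), with 95% intervals from limma (3 against 3 libraries). The gray band holds the 5th to 95th percentile of all tested genes, -0.35 to 0.43; every interval includes 0, and EREBP lies at the lower edge of the band.

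Since FPKM is scaled to length, levels can be ordered between genes. The order by mean over the 6 libraries was LOC102577997 at 5060 FPKM, EIL1 at 75.3, ETR2 at 63.2, ETR1 at 50.2 and EREBP at 47.8 FPKM. LOC102577997 lay above EIL1 in 6 of 6 libraries, and its mean was 67.2 times as high. EIL1 lay above ETR2 in 3 of 6 libraries and ETR1 above EREBP in 3 of 6, so these neighbours did not differ in level beyond their spread. The place of EIL1 rests on the sum over its transcripts. Its annotated NM_001288922.1 averaged an estimated 4.81 FPKM, below the other members, with the division of shared reads not known. ETR2 lay above ETR1 in 5 of 6.

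The named genes most like each member were found by the root mean square distance between profiles of log2(FPKM + 1) over the 6 libraries, each centred on its mean. Among 66 named genes with a mean FPKM of at least 10, the nearest to LOC102577997 were C4H2 (0.13) and TRAX (0.16), where the median distance was 0.33. For ETR1, ETR3 was among the nearest (0.0906), against a median of 0.27, and both are genes that hardly varied. The root mean square of ETR1 around its own mean was 0.0856, so ETR3 lay no nearer to it than a flat profile would. For ETR2 the nearest genes were ARF (0.17) and RRMP1 (0.19), against 0.37. For EIL1 they were LEA5 (0.23) and TDX (0.26), against 0.45, and for EREBP they were UGT3 (0.13) and the dehydrin gene DHN (0.15), against 0.35. With 6 libraries these distances are a description of these libraries.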

How the data were processed

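RNA of 6 albedo libraries was sequenced on an Illumina HiSeq instrument, per the labels' protocols. The authors deposited, per the file headers, an FPKM and a mean per-base coverage (signal, not normalized) for each transcript and library. They also deposited a gene table in a unit of its own, a score that is not the gene's FPKM, used here as an alternative only. The planned gene value was the sum of FPKM over transcripts by gene name. Aligner, assembler, genome build and strand setting were not stated in any label or header (not given in the sources used here), and how reads shared between overlapping transcripts or related genes were divided is not known. Names came from the files and a RefSeq gene table (assembly DVS_A1.0, names only). No sequence was at hand.

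The test was limma's moderated one (limma 3.58.1, R 4.3.3), two-sided, with its variance trend on the mean, on log2(FPKM + 1). It covered all features whose FPKM averaged at least 1, and p-values were adjusted over them by Benjamini and Hochberg's method. Fold intervals and differences are on that scale, on which changes of low genes look smaller than in FPKM. The threshold was 0.05. Summaries and figures used Python 3.11.15, pandas 2.3.3, numpy 2.4.6 and matplotlib 3.10.9. On simulated data the test recovered 18%, 52%, 90% and 100% of genes altered 1.5-, 2-, 4- and 8-fold among 17355 genes (50 genes a size, mean log2 value above 3). Among 26605 transcripts it recovered 2%, 30%, 72% and 94%. All sizes were altered together in the same run, which makes the adjusted threshold easier to pass. In the data 1 of 17355 genes and 9 of 26605 transcripts passed, so the shares recovered may be too high for these data.

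The members and lists were chosen with earlier results of these data known. The naming rule takes every member and its transcripts, every further gene whose symbol or synonym is that of an ethylene synthesis, receptor or response gene (4 matched), the 2 named genes nearest to each member in profile, and the named genes next to LOC102577997 in level. A gene that this rule names near ETR1 is not reported here. Replicate numbers come from the titles, which do not state that they pair libraries.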

Additional observations from a re-analysis of the deposited data

How the results depend on the processing

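Alternatives were a pseudocount of 0.1, no filter, a mean FPKM of at least 5, median-of-ratios scaling, quantile normalization, robust variance, a replicate block, annotated transcripts only, the deposited gene table, and each library left out in turn. The counts of members and of member transcripts past the threshold in limma were 0 under all of these that apply to them. Of 75 member differences 69 kept direction and side and 6 turned direction. The changed filters, robust variance and the replicate block leave a difference itself as it was, so direction could not turn under them. Leaving out assembled transcripts did not change the differences of LOC102577997, ETR1 and EREBP either. LOC102577997 became 0.16 under quantile normalization, which for this gene of rank 1 or 2 keeps the rank and not the measured level. With 1 library left out the ranges were -0.23 to 0.057 for LOC102577997, -0.11 to -0.004 for ETR1, -0.12 to 0.23 for ETR2, -0.038 to 0.51 for EIL1, -0.48 to -0.23 for EREBP, -0.17 to 0.41 for LOC102621630 and -0.28 to 0.0082 for the log2 ratio of ETR1 to ETR2. Differences of the 4 further genes and of the transcripts of EIL1, EREBP and ETR1 were added after seeing the data. With 1 library left out those of XM_006477852.3 ran from -0.055 to 0.47, of MSTRG.4976.3 from -0.34 to 0.062 and of MSTRG.4976.6 from -0.56 to 0.44. Over all genes, 1 passed, and 2 with a pseudocount of 0.1, robust variance, the deposited gene table or the replicate block, 0 in limma when assembled transcripts were left out (806 at an unadjusted p under 0.05) and 1 to 5 with 1 library left out, 5 of them without yeast-only replicate 2. Over all transcripts 9 passed, and 5 with a pseudocount of 0.1 or no filter, 4 at a mean FPKM of at least 5, 0 in limma with the replicate block (1475 at an unadjusted p under 0.05) and 1 to 28 with 1 library left out. The causes were not tested. Same-numbered libraries deviated from their group means with correlations of 0.114, 0.188 and -0.009, and differently numbered ones with -0.248 to 0.14. These values do not decide whether libraries are paired. The titles do not state pairs, so the numbers were not taken as such in the planned test. With the replicate block EIL1 had the same difference, 0.17, with an SE of 0.14 in place of 0.29 (adjusted p = 0.907), and EREBP had an adjusted p of 0.767. Median-of-ratios scaling moved the median over all genes from 0.02 to -0.005. With 3 libraries a group, 18% of simulated 1.5-fold and 52% of 2-fold differences in genes were recovered, so a difference as small as that of EREBP was mostly not detectable.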

Other observations

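EREBP and the gene with the synonym ERF, LOC102618338, stood in opposite order in the groups. The ratio of EREBP to LOC102618338 within a library was 0.945, 0.824 and 0.767 in SA replicates 1 to 3, and 1.17, 1.58 and 1.06 in yeast-only libraries. EREBP was thus the lower of the pair in 3 of 3 SA libraries and the higher in 3 of 3 yeast-only libraries, while neither gene alone separated the groups. The group means of the ratio were 0.845 ± 0.0912 in SA libraries and 1.27 ± 0.275 in yeast-only libraries (SD, n = 3 each), and the log2 ratio differed by -0.56. This pair was picked after its values were seen, as the only 1 of 36 pairs among the 9 ethylene genes whose ratio did not overlap between the groups, which is 2.78% of the pairs. An exact permutation test of 3 against 3 libraries gives p = 0.10 for any such separation, the smallest it can give. Among 2145 pairs of all named genes with a mean FPKM of at least 10, 10.1% did not overlap. The shares were not tested against each other, since pairs share genes.

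The ACC synthase genes LOC102614629 and LOC102621630 had a highest library 2.35 and 2.34 times their lowest, above the 2.09 of EIL1. Their within-group SD on the log2 scale was larger than that of 92.4% and 95.3% of genes with a mean FPKM of at least 10. The corresponding share was 72.4% for the ACC oxidase gene LOC102577997. The ratio of LOC102614629 to LOC102621630 was 2.08, 1.497 and 1.53 in SA replicates 1 to 3, and 2.16, 2.01 and 2.51 in yeast-only libraries. This ratio overlapped between the groups, by SA replicate 1 and yeast-only replicate 2, and was not tested. The named genes nearest to LOC102621630 in profile were SAMDC, an S-adenosylmethionine decarboxylase gene by its symbol (distance 0.20), and ETR2 (0.21), against a median distance of 0.47.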
